A study of Oryctolagus cuniculus with 4 samples.

Results

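Heat shock proteins and chaperones were examined in rabbit ear hypertrophic scar (HS) tissue with and without drug-loaded microneedles (MNs). The genes were taken by symbol from the deposited table and covered the HSP70 family (HSPA), HSP90, the small heat shock proteins (HSPB), their J-domain partners (DNAJA, DNAJB and DNAJC), the BAG co-chaperones, the CCT chaperonin with TCP1, and the heat shock factors (HSF). The symbols matched 55 of 13913 genes in the table, of which 10207 carried a symbol. Of the 55, 49 had a mean of at least 1 unit and were tested, 4 stood above 0 but under that minimum, and 2 (DNAJC5B and DNAJC5G) were listed at 0 in all libraries. HSPA1A, HSPA1B, HSPA5, HSPH1, HSP90AA1, HSP90AB1, HSPB1, HSPD1, HSPE1, DNAJB1, HSF1 and CCT6A were not analysed here, so the families below are partial.

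Chaperones bind proteins that are not yet folded or have come unfolded, and keep them from clumping until they fold, are handed on, or are degraded. HSP70 proteins do this in cycles driven by ATP, with J-domain proteins that deliver the client and start the cycle and with exchange factors such as the BAG proteins that end it. Small heat shock proteins hold clients without ATP, the ring-shaped CCT complex encloses actin and tubulin while they fold, and heat shock factors drive transcription of many of these genes under stress. In skin, keratinocytes and the collagen-secreting fibroblasts both depend on this machinery, the latter above all in the endoplasmic reticulum (ER).

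Single-cell libraries were made by the 10x Genomics droplet method from ventral epidermis and dermis of scars raised on the ears of wild-type female rabbits. The HS group (2 libraries) was left untreated, and the drug-loaded MNs group (2 libraries) was given 1 patch per scar, once a week for 3 weeks, of needles whose tips separate and remain in the tissue, where they release 5-fluorouracil acetic acid from a prodrug. Tissue was taken a week after the last patch. Each library came from 1 scar tissue. The study describes the libraries of a group as biologically independent, without saying that each came from its own rabbit, and p-values measure the spread between these libraries. No library of drug-free needles was among them, so needle and drug cannot be told apart.

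The table held 1 value per gene and library, with no values per cell and a common total, and the depth was unknown. A unit below is 1 part in 1000000 of a library's total. Keratinocyte and fibroblast markers such as KRT10 and COL1A2 were present in every library. Between 11844 and 12059 genes had a value above 0. Mitochondrially encoded genes took 2.75% to 2.80% of the total in HS and 4.37% to 4.58% in drug-loaded MNs, and their part in the values below was not tested. Over all 9348 tested genes the fold change had a median of 0.12 on the log2 scale, so a chaperone gene at 0.12 moved with the rest of the table.

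The question here was whether treated scars differed from untreated scars in their chaperone genes. No chaperone gene of the 49 reached a limma adjusted p under 0.05, and of all tested genes 0.0428% did. The lowest limma adjusted p among them was 0.314, for HSPB8. Before adjustment 3 of the 49 had a limma p under 0.05, against 8.65% of all tested genes. HSPB3 and DNAJB13 were the 2 on the higher side, where the background was 7.26%, and HSPB8 was the 1 on the lower side, where it was 1.39%. The groups did not overlap in 20 genes, 10 with drug-loaded MNs above HS (background 26.6%) and 10 below (background 11.2%). Because each library has 1 value for all its cells, fewer cells of a type and less RNA per cell cannot be told apart in any of these differences.

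**Figure D1:**
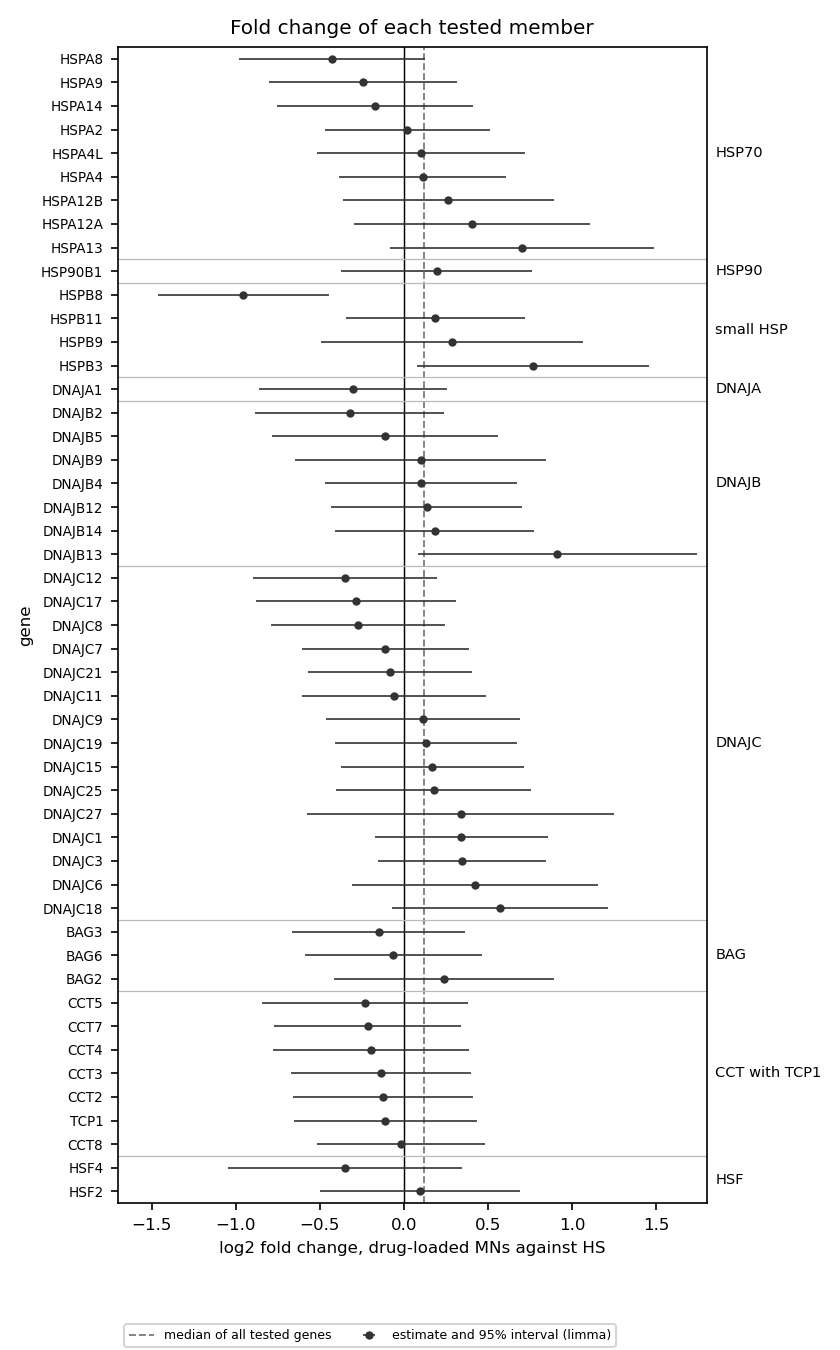
Log2 fold change (x axis, drug-loaded MNs against HS, log2(value + 1) scale) of the 49 tested genes (y axis) grouped by family; points are limma estimates from 2 libraries per group, bars their 95% intervals, and the dashed line the median of all tested genes (0.12). The interval of HSPB8 lies wholly below 0, those of HSPB3 and DNAJB13 wholly above, and those of the other 46 genes hold 0.

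Most of the set moved little, and so did most of the table. Across the 49 genes the fold change had a median of 0.094 on the log2 scale, close to the 0.12 of all tested genes, and 26 were higher and 23 lower in drug-loaded MNs, which is 53.1% higher against 64.6% of all tested genes. Scaling by median ratio moved both shares, to 34.7% and 48.7%. An absolute log2 fold change of at least 0.5 was found in 5 genes. The median absolute fold change between groups was 0.19 on the log2 scale, against 0.23 over all tested genes. Between the HS libraries the median absolute difference was 0.23 in the set and 0.33 over all tested genes. Between the drug-loaded MNs libraries it was 0.23 in both. The first compares means of 2 libraries and the others single libraries, so their sizes cannot be set side by side. For 39 genes the 95% interval lay within -1 and 1, so a doubling or halving of the value plus 1 was outside it. For genes of low value this does not hold for the value itself. Added over the 55 genes, relative expression was 7757 and 6967 units in HS and 6874 and 6318 units in drug-loaded MNs. Without HSPA8 the sums were 5493 and 5106 units in HS and 5362 and 4774 units in drug-loaded MNs, and the groups then overlapped.

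**Figure D2:**
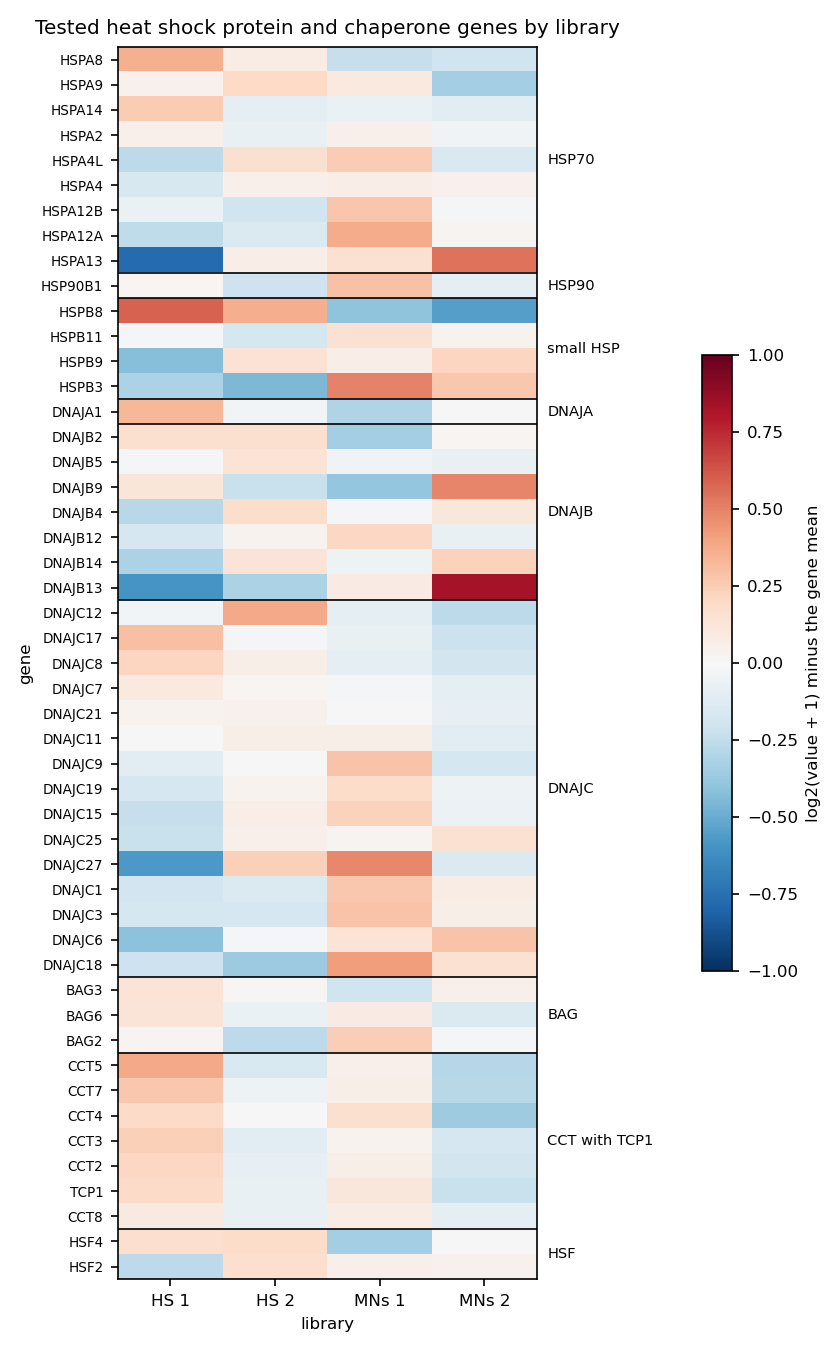
Log2(value + 1) of each tested gene minus its mean over the 4 libraries (colour, red above and blue below the mean), with genes in rows by family and libraries in columns (HS replicates 1 and 2, drug-loaded MNs replicates 1 and 2). HSPB8 is red in both HS libraries and blue in both drug-loaded MNs libraries, while the CCT rows are darkest red in HS replicate 1 and blue in drug-loaded MNs replicate 2.

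Among the small heat shock proteins, HSPB8 differed most. HSPB8 works with BAG3 and HSP70 to send damaged proteins, in muscle above all, to autophagy. Its relative expression was 260.6 and 222.7 units in HS and 130.5 and 117.4 units in drug-loaded MNs. Both treated libraries thus lay well below both untreated ones, and the gap between groups was wider than the gap within either. The mean went from 242 ± 26.8 to 124 ± 9.26 units (SD, n = 2 each), a difference of -48.7%. The log2 fold change was -0.95 (SE 0.22, 95% interval -1.46 to -0.45), with an unadjusted limma p of 0.0027 and a limma adjusted p of 0.314. Only 0.727% of all tested genes had a lower log2 fold change than HSPB8. With 1 library left out it ranged from -1.07 to -0.84.

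BAG3, the partner that links HSPB8 to HSP70, overlapped between the groups. It stood at 127 and 116 units in HS and at 100.1 and 119 units in drug-loaded MNs. Drug-loaded MNs replicate 1 was the low library, and the log2 fold change was -0.15 (95% interval -0.66 to 0.36, limma adjusted p 0.901). The ratio of HSPB8 to BAG3 within a library was 2.05 and 1.92 in HS, against 1.30 and 0.983 in drug-loaded MNs. The treated libraries were the low ones in this ratio, which largely repeats the HSPB8 values because BAG3 differed little between the groups.

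The other small heat shock proteins were higher in drug-loaded MNs or overlapped. HSPB3, known from muscle, stood at 1.67 and 1.44 units in HS and at 3.70 and 3.01 units in drug-loaded MNs. The groups did not overlap, with a log2 fold change of 0.77 (SE 0.30, unadjusted limma p 0.0337, limma adjusted p 0.513), but the values lay close to the minimum of 1 unit, where the pseudocount weighs most. HSPB11, which despite its name is part of the transport system of cilia, stood at 41.7 and 37.2 units in HS and at 46.8 and 43.3 units in drug-loaded MNs. That is 0.19 on the log2 scale (limma adjusted p 0.883), small although the groups did not overlap. HSPB9, a testis form, overlapped between the groups.

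In the HSP70 family, HSPA8 and HSPA13 lay at opposite ends. HSPA8, the constitutive HSC70 of the cytosol that also drives uncoating of clathrin vesicles, stood at 2264 and 1861 units in HS and at 1512 and 1545 units in drug-loaded MNs. Both HS libraries were above both treated ones, and the mean was 2062 ± 285 in HS and 1528 ± 23.5 units in drug-loaded MNs (SD, n = 2 each). On the log2 scale this was -0.43 (SE 0.24, 95% interval -0.98 to 0.13, limma adjusted p 0.715), and 5.13% of all tested genes had a lower one. HSPA13, an HSP70 relative of the ER, stood at 13.8 and 25.4 units in HS and at 27.0 and 35.7 units in drug-loaded MNs. The groups did not overlap, though HS replicate 2 lay just under drug-loaded MNs replicate 1, and HS replicate 1 was the low library. The log2 fold change of HSPA13 was 0.70 (SE 0.34, 95% interval -0.085 to 1.48, limma adjusted p 0.649), with 0.28 when HS replicate 1 was left out and 1.12 when HS replicate 2 was.

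The remaining HSP70 genes lay between these. HSPA9, the HSP70 of mitochondria, stood at 144 and 160 units in HS and at 149 and 109.5 units in drug-loaded MNs, so that drug-loaded MNs replicate 2 alone was low. HSPA4, an exchange factor of the HSP110 type, stood at 169 and 197 units in HS and at 199 and 196 units in drug-loaded MNs, and its relative HSPA4L at 43.6 and 58.8 units in HS and 62.7 and 47.1 units in drug-loaded MNs. The log2 fold changes of HSPA9, HSPA4 and HSPA4L were -0.24, 0.11 and 0.10, none with a limma adjusted p under 0.854. HSPA2, known for its part in sperm formation, overlapped at 152 and 139 units in HS and 152 and 143 units in drug-loaded MNs. HSPA14, found on ribosomes, stood at 31.9 and 25.0 units in HS and at 25.3 and 24.7 units in drug-loaded MNs, with HS replicate 1 as the high library. HSPA12B, an endothelial member, stood at 11.6 and 10.5 units in HS and at 14.95 and 12.1 units in drug-loaded MNs, 0.26 higher on the log2 scale (limma adjusted p 0.861). In the RefSeq gene list of the assembly mOryCun1.1, HSPA12B overlaps SIGLEC1, a macrophage gene, which stood at 13.8 and 10.3 units in HS and at 20.9 and 22.8 units in drug-loaded MNs, and the part of that overlap in its value was not tested.

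**Figure D3:**
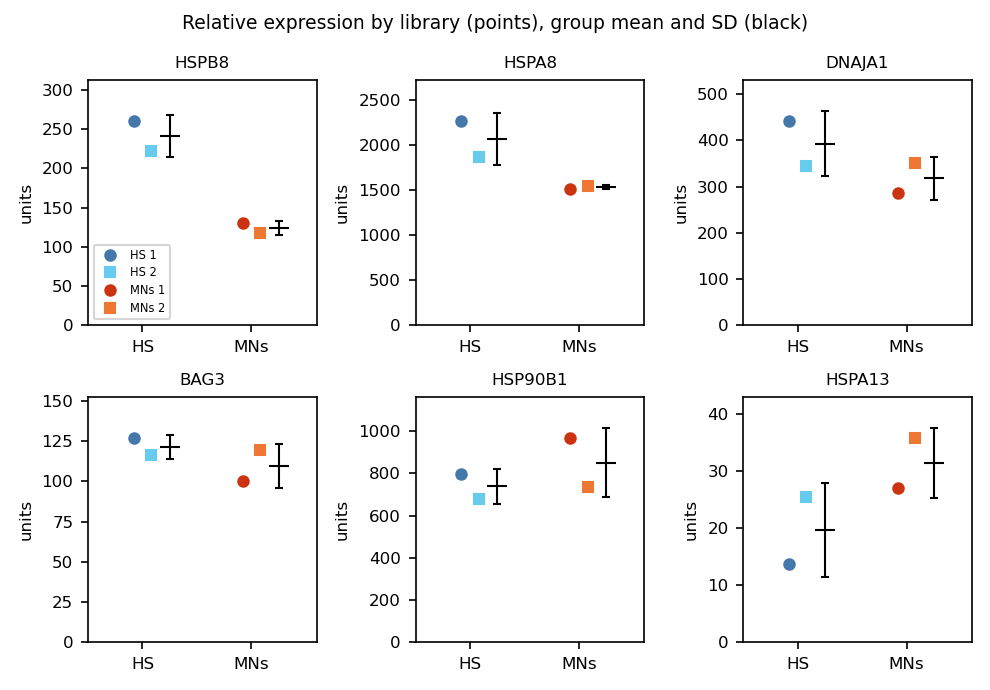
Relative expression (y axis, units of 1 part in 1000000, from 0) of 6 chaperone genes in HS and drug-loaded MNs (x axis); coloured points are single libraries, black bars the group mean and SD (n = 2 each). HSPB8 and HSPA8 are lower in both treated libraries, HSPA13 is higher in both, and DNAJA1, BAG3 and HSP90B1 overlap.

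J-domain proteins of the cytosol with a fold change below 0 included DNAJA1, DNAJB2, DNAJB5 and DNAJC7, and none of these passed the test. The log2 fold changes of DNAJB5 and DNAJC7 were both -0.11, small although the groups did not overlap. DNAJB4, described below, stood above 0 at 0.10. DNAJA1, which helps HSPA8 fold and import proteins, stood at 443 and 344 units in HS and at 285 and 351 units in drug-loaded MNs. The groups overlapped by the narrow margin of HS replicate 2 and drug-loaded MNs replicate 2, and the log2 fold change was -0.30 (95% interval -0.86 to 0.26, limma adjusted p 0.813). The ratio of DNAJA1 to HSPA8 was 0.195 and 0.185 in HS, against 0.189 and 0.227 in drug-loaded MNs, so it overlapped. DNAJB2, which sends HSP70 clients to the proteasome, stood at 47.7 and 47.8 units in HS and at 33.5 and 43.1 units in drug-loaded MNs. Its log2 fold change was -0.32 (limma adjusted p 0.796), with drug-loaded MNs replicate 1 as the lowest library. The tubulin gene TUBA4A, which overlaps DNAJB2 in that RefSeq list, stood at 530.2 and 478 units in HS and at 277 and 375 units in drug-loaded MNs, and whether reads were shared was not tested.

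Other DNAJB genes showed no common direction. DNAJB4, a partner of HSP70 in muscle and other tissues, stood at 60.1 and 82.7 units in HS and at 72.2 and 79.3 units in drug-loaded MNs, and overlapped. DNAJB13, a protein of the sperm tail and of motile cilia, stood at 0.996 and 1.42 units in HS and at 2.19 and 4.35 units in drug-loaded MNs. Its log2 fold change was 0.91 (SE 0.36, unadjusted limma p 0.0353, limma adjusted p 0.519), resting on values near the minimum and on drug-loaded MNs replicate 2 as the high library. Of the 7 DNAJB genes, 5 were higher and 2 lower, with a median log2 fold change of 0.10.

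Of 17 DNAJC genes, 15 were tested. In this family 9 genes were higher and 6 lower, and in 9 of the 15 the groups did not overlap, 4 higher (26.7%, against 26.6% of all tested genes) and 5 lower (33.3%, against 11.2%), with log2 fold changes from -0.35 to 0.57. DNAJC12, a partner of the enzymes that hydroxylate aromatic amino acids, stood at 328 and 434 units in HS and at 314 and 278 units in drug-loaded MNs. Its log2 fold change was -0.35 (95% interval -0.90 to 0.20, limma adjusted p 0.767), with HS replicate 2 as the high library. DNAJC8, a splicing protein, stood at 63.1 and 56.4 units in HS and at 50.7 and 47.6 units in drug-loaded MNs, -0.27 on the log2 scale (limma adjusted p 0.814). DNAJC18 stood at 7.80 and 6.93 units in HS and at 12.6 and 10.3 units in drug-loaded MNs, which at 0.57 was the highest log2 fold change among the tested DNAJC genes (SE 0.27, limma adjusted p 0.651). DNAJC19 and DNAJC15, which work at the import motor of the inner mitochondrial membrane, overlapped, with log2 fold changes of 0.13 and 0.17.

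Chaperones of the ER stood mostly on the higher side. The 5 listed members (HSP90B1, HSPA13, DNAJB9, DNAJC1 and DNAJC3) all had a fold change above 0, with a median of 0.34 on the log2 scale against 0.12 for all tested genes, and in 3 of them the groups did not overlap, against 26.6% of all tested genes. Median ratio scaling left 4 of the 5 above 0, with DNAJB9 below, and moved their median to 0.20 and that of all tested genes to -0.011. None of the 5 passed, and the lowest limma adjusted p was 0.649. The list was partial, since HSPA5, DNAJB11 and DNAJC10 of it were not analysed here. It also left out J proteins of the ER membrane such as DNAJB12 and DNAJB14. DNAJB12 and DNAJB14 overlapped between the groups, with log2 fold changes of 0.13 and 0.18, nearer the 0.12 of all tested genes. DNAJC3, an inhibitor of the kinase PERK that also binds clients in the ER, stood at 121.8 and 122.1 units in HS and at 168 and 143 units in drug-loaded MNs, or 0.34 higher on the log2 scale (SE 0.21, limma adjusted p 0.747). DNAJC1, a J protein of the ER membrane, stood at 56.7 and 58.7 units in HS and at 78.6 and 68.4 units in drug-loaded MNs, likewise 0.34 higher on that scale (SE 0.22, limma adjusted p 0.754). In both genes the HS libraries lay close together and both treated libraries above them.

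The direction of HSP90B1 and DNAJB9 depended on single libraries. HSP90B1, the HSP90 of the ER (GRP94) that folds integrins and Toll-like receptors, stood at 796 and 680.3 units in HS and at 966 and 735 units in drug-loaded MNs. Drug-loaded MNs replicate 1 was the high library, and the log2 fold change of 0.19 (95% interval -0.37 to 0.76, limma adjusted p 0.889) was -0.0031 without it. DNAJB9, an ER partner of BiP that is induced by unfolded proteins, stood at 123 and 96.9 units in HS and at 86.3 and 159 units in drug-loaded MNs, so the treated libraries were the lowest and the highest. Its log2 fold change was 0.099, but it became 0.54 once drug-loaded MNs replicate 1 was dropped, or -0.34 once replicate 2 was.

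Fibroblast and macrophage markers stood higher beside the ER genes. All 6 fibroblast markers in the table (COL1A1, COL1A2, COL3A1, DCN, DPT and LUM) were higher without overlap, against 26.6% of all tested genes. Their log2 fold changes ran from 0.58 to 1.46, and their sum was 22996 and 22526 units in HS and 44682 and 48616 units in drug-loaded MNs. All 7 macrophage markers were higher without overlap (background again 26.6%), with log2 fold changes from 0.82 to 1.79. Their sum was 119.5 and 129.9 units in HS and 286 and 283 units in drug-loaded MNs. The endothelial and mast cell lists were mixed: CDH5 and KIT had an unadjusted limma p under 0.05 on the higher side, while VWF was lower without overlap (log2 fold change -0.50), EMCN stood at -0.0034 and HDC at -0.49 on the log2 scale. All 4 mural markers and the T cell marker CD2 had a fold change above 0, with an unadjusted limma p under 0.05 for ACTA2, PDGFRB and CD2. None of the markers passed the adjusted threshold. The 3 suprabasal keratinocyte markers overlapped, with sums of 35935 and 50732 units in HS and 30455 and 39833 units in drug-loaded MNs. The part of cell makeup in the ER values or in those of HSPB8 and HSPA8 was not tested.

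Genes of the ER stress response outside the set stood closer to the rest of the table. Of 5 in the table, 4 were higher and 1 lower, where 64.6% of all tested genes were higher. Their median log2 fold change was 0.22, against 0.12 for all tested genes. In 1 of the 5 the groups did not overlap, on the higher side (background 26.6%). None of the 5 passed the threshold, and the lowest limma adjusted p was 0.673.

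Genes listed as stress-inducible stood mostly on the lower side, but the list was partial and included the constitutive HSPA8. Of its 15 genes, 6 were in the table. HSPA1A, HSPA1B, HSPH1, HSP90AA1, HSP90AB1, DNAJB1, HSPB1, HSPD1 and HSPE1 were not analysed here. The values therefore do not describe stress-induced genes as a whole. The 5 tested genes (HSPA8, HSPA4L, DNAJA1, HSPB8 and BAG3) had a median log2 fold change of -0.30, with 4 lower and 1 higher (HSPA4L), and all 5 were lower under median ratio scaling or quantile normalization. That median rested on single libraries in its size: leaving out HS replicate 1 gave -0.12 and HS replicate 2 gave -0.48, while among the treated libraries replicate 1 gave -0.15 and replicate 2 gave -0.44. HSPA6, a strictly induced HSP70, was in the table at 0.259 and 0.573 units in HS and at 0.758 and 0.377 units in drug-loaded MNs and was under the minimum. The 5 genes deviated from their means by a median of 0.33 and 0.071 in HS, against -0.23 and -0.15 in drug-loaded MNs. Immediate early genes of the dissociation response, which are switched on when tissue is taken apart, stood beside them: all 8 in the table had a fold change below 0, with a median of -0.32 and no overlap in 2 (background 11.2%), and none passed (lowest limma adjusted p 0.673). The median deviation of these 8 genes was -0.0042 and 0.36 in HS, against -0.18 and -0.10 in drug-loaded MNs. HS replicate 2 was their high library, and HS replicate 1 was that of the 5 genes listed as stress-inducible. The part of the dissociation response in the chaperone values was not tested.

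The CCT ring overlapped between the groups in every tested subunit. All 7 tested subunits had a fold change below 0, from -0.23 in CCT5 to -0.020 in CCT8, with a median of -0.14. All 7 were also below 0 under median ratio scaling, with a median of -0.28, and under quantile normalization, with a median of -0.16. CCT2 stood at 380.2 and 309.9 units in HS and at 343 and 289 units in drug-loaded MNs. CCT5 stood at 244 and 169 units in HS and at 195 and 153 units in drug-loaded MNs. CCT8 stood at 246.7 and 219.8 units in HS and at 244.0 and 216.2 units in drug-loaded MNs. In each, replicate 1 of a group was above its replicate 2, and the groups overlapped.

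The same order of libraries held in every subunit tested. HS replicate 1 was highest, then drug-loaded MNs replicate 1, HS replicate 2 and drug-loaded MNs replicate 2, in 7 of 7 subunits, against 2 of the other 42 tested chaperone genes and 4.77% of all tested genes. This order was looked for after the values were seen. The summed value of the 7 subunits was 1748 and 1422 units in HS and 1587 and 1290 units in drug-loaded MNs. The shares of that sum differed little between libraries for some subunits. CCT2 held between 21.6% and 22.4%, TCP1 between 14.3% and 14.9%, CCT3 between 12.4% and 13.2% and CCT7 between 9.15% and 9.91%. CCT4 (12.0% to 14.0%), CCT5 (11.9% to 14.0%) and CCT8 (14.1% to 16.8%) varied more. Without HS replicate 1 the median log2 fold change of the ring was 0.022, with 5 subunits above 0, and without drug-loaded MNs replicate 2 it was -0.0023, with 3 above 0.

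**Figure D4:**
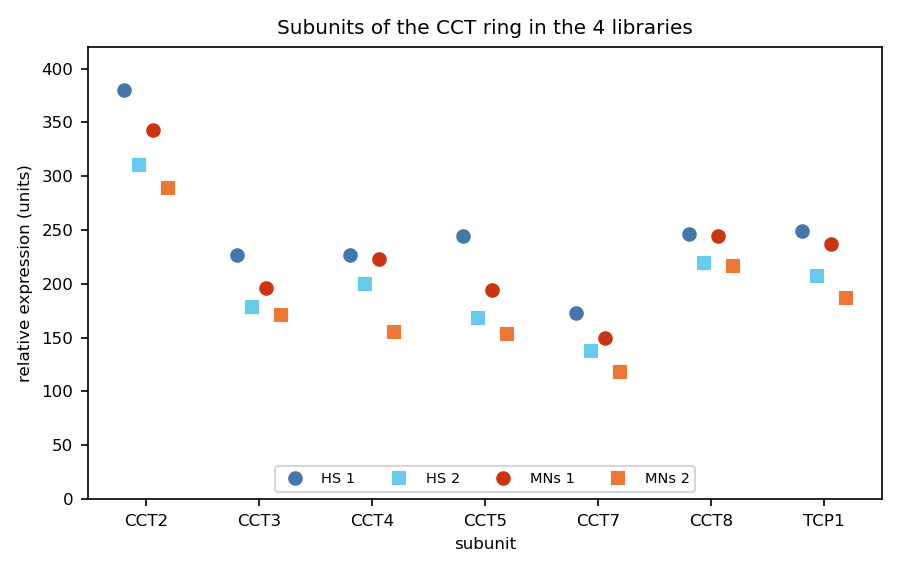
Relative expression (y axis, units of 1 part in 1000000, from 0) of the 7 tested CCT subunits (x axis); each point is 1 library, circles for replicate 1 and squares for replicate 2. In every subunit the order from the top is HS 1, MNs 1, HS 2 and MNs 2, so the groups overlap throughout.

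Basal keratinocyte markers did not give 1 answer beside the ring. KRT14 had the same order of libraries, at 3282 and 1874 units in HS and 2451 and 1666 units in drug-loaded MNs. The sum of the 4 basal markers was 8095 and 5578 units in HS and 7485 and 3938 units in drug-loaded MNs, which is that order again. KRT14 was the 1 marker of the 4 with that order. KRT5 was highest in drug-loaded MNs replicate 1 (4500.4 units, against 4485 in HS replicate 1), and COL17A1 and TP63 were lowest in HS replicate 1. Of the 3 chondrocyte markers, SOX9 had that order too, at 112.6 and 90.7 units in HS and 105.3 and 65.8 units in drug-loaded MNs. COL9A1 and MATN3 were likewise highest in HS replicate 1, but lowest in HS replicate 2. The chondrocyte sum was 393 and 97.8 units in HS and 234 and 150 units in drug-loaded MNs. The part of cell makeup in the CCT values was not tested. Prefoldin, which hands unfolded actin and tubulin to CCT, and its phosducin-like partner were all lower in drug-loaded MNs in value, 5 of 5 with a median of -0.30 and no overlap in 2 (background 11.2%). None of the 5 passed (lowest limma adjusted p 0.722), and PFDN5 was low in drug-loaded MNs replicate 1 alone, at 411 units against 977 to 1138 units elsewhere.

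CCT6B, a testis form of a ring subunit, lay under the minimum at 0.181 to 0.602 units, and CCT8L2 at 0.0613 to 0.144 units.

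BAG proteins overlapped between the groups, and of the heat shock factors HSF4 did not. BAG6, which guides membrane proteins and clients of the proteasome, stood at 77.1 and 67.5 units in HS and at 74.8 and 63.8 units in drug-loaded MNs, a log2 fold change of -0.062 (95% interval -0.59 to 0.46, limma adjusted p 0.965). BAG2, an inhibitor of the ubiquitin ligase CHIP, overlapped too. HSF2, which forms complexes with HSF1, stood at 25.9 and 35.3 units in HS and at 32.4 and 32.3 units in drug-loaded MNs. HSF4, known from the lens, stood at 3.64 and 3.69 units in HS and at 2.26 and 3.11 units in drug-loaded MNs, without overlap, with a log2 fold change of -0.35 (95% interval -1.04 to 0.34, limma adjusted p 0.829). HSF5 was under the minimum, at 0.0508 to 0.317 units.

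Co-chaperones outside the set showed no common direction. Of 8 in the table, 3 were higher and 5 lower, with a median log2 fold change of -0.13 and a lowest limma adjusted p of 0.702. FKBP5, an HSP90 partner induced by glucocorticoids, stood at 13.1 and 10.1 units in HS and at 15.3 and 18.8 units in drug-loaded MNs, without overlap (log2 fold change 0.52, limma adjusted p 0.702). CRYAB, a small heat shock protein with a name of its own, stood at 112 and 76.5 units in HS and at 77.7 and 84.9 units in drug-loaded MNs, and overlapped.

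**Figure D5:**
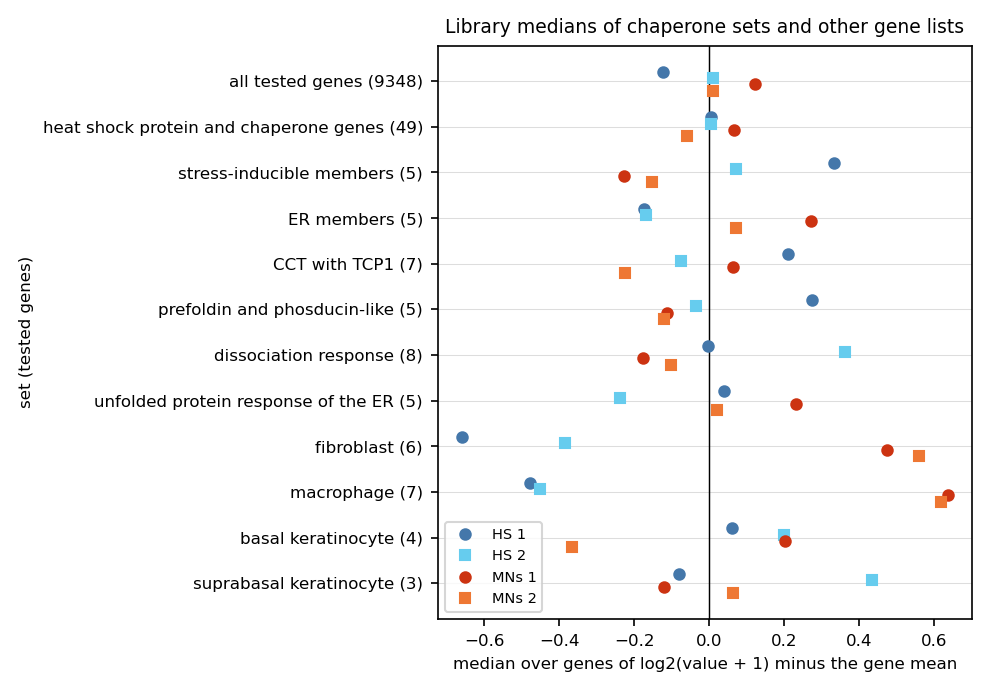
Median over genes of log2(value + 1) minus the gene mean (x axis) for each library, in chaperone groups, related gene lists and marker lists (y axis, number of tested genes in brackets). Members listed as stress-inducible, with the constitutive HSPA8 among them, lie to the right in HS and to the left in drug-loaded MNs, and ER members the reverse. The CCT ring separates replicate 1 from replicate 2 in each group. Fibroblast and macrophage markers separate the groups most widely.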

How the data were processed

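The authors counted unique molecular identifiers with Cell Ranger (2.1.1 in the submitters' notes) and filtered and handled cells in Seurat; how cells were combined was not stated. The submitters' notes name the mouse build mm10, whereas the gene identifiers are those of rabbit, and the build used was not settled. The deposited signal is 1 relative expression value per gene and library, scaled by the authors so that each column sums to 10000. The table is named for FPKM, and gene length correction was not stated. Whether a batch correction mentioned in the methods reached these values was not stated. Low values did not fall on whole steps (18.6% to 21.7% within 0.1 of a step), so no count model was run, and no count interval can be given.

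Values were rescaled to a total of 1000000. Of the genes, 9348 had a mean of 1 unit or more; for these, log2(value + 1) was fitted in limma 3.58.1 (R 4.3.3; lmFit, eBayes with trend), two-sided, with Benjamini-Hochberg adjustment over all tested genes and a threshold of 0.05. The fit was run on simulated data, with planted changes larger than those of the chaperone genes. Its power at the smaller changes found here was not measured. With 2 libraries a group, exact permutation has a smallest p of 0.333 and was not used. Named genes were those with an unadjusted p under 0.05, stress-inducible members, and the 2 highest of each family; listed ER and mitochondrial members and the CCT subunits were added, and HSPA2, HSPA12B, HSPA14, DNAJB2, DNAJC8, DNAJC18, CCT3, CCT4, CCT5, CCT7 and TCP1, and of other genes SIGLEC1, TUBA4A, KRT14, KRT5, COL17A1, TP63, VWF, EMCN, HDC, PFDN5, FKBP5 and CRYAB, were named after their values were seen. The chondrocyte markers SOX9, COL9A1 and MATN3 were likewise named after their values were seen. So were DNAJB5, DNAJC7, DNAJB12 and DNAJB14, which were not followed through the alternatives below. The members, lists and tests were chosen with earlier results of these data known. Symbols of 54 of the 55 genes matched a RefSeq gene of mOryCun1.1, used only for overlaps, and 23 overlap another protein-coding gene there.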

Additional observations from a re-analysis of the deposited data

How the results depend on the processing

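No chaperone gene passed in 13 of 14 alternatives. With the replicate block 1 did (HSPB8, limma adjusted p 0.0170), as did 241 genes over the whole table. Same-numbered libraries deviated together with a correlation of 0.22, which 2 pairs cannot establish as a pairing, and the labels give them only a shared number. Calls over the whole table (4) numbered 0 with scaling by median ratio, by quantiles or by a total without abundant genes, 0 with a pseudocount of 5 or no filter, 1 without trend, and 0 to 75 with 1 library left out, where the lone library is taken to vary as the pair does. The median of the chaperone genes (0.094) was -0.046 under median ratio scaling, -0.014 under quantile normalization, -0.020 with a minimum mean of 5, and -0.034 to 0.061 with 1 library left out. The cause was not tested.

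Of 35 named genes 19 kept their direction in every alternative, HSPB8 (-1.10 to -0.84), HSPA8 (-0.57 to -0.28), HSPA13, DNAJC1 and DNAJC3 among them. Median ratio scaling turned DNAJB4 (-0.042), DNAJB9 (-0.045), DNAJC19 (-0.0083), HSF2 (-0.046), HSPA2 (-0.12), HSPA4 (-0.033) and HSPA4L (-0.042), and quantile normalization turned HSF2 (-0.022), HSPA2 (-0.014) and HSPA4L (-0.0059). With 1 library left out the ranges were -0.18 to 0.051 for BAG6, -0.27 to 0.022 for CCT2, -0.31 to 0.035 for CCT3, -0.45 to 0.064 for CCT4, -0.50 to 0.034 for CCT5, -0.11 to 0.067 for CCT8, -0.28 to 0.057 for TCP1, -0.13 to 0.33 for DNAJB4, -0.34 to 0.54 for DNAJB9, -0.12 to 0.31 for HSF2, -0.0031 to 0.39 for HSP90B1, -0.34 to 0.0019 for HSPA14, -0.044 to 0.085 for HSPA2 and -0.11 to 0.31 for HSPA4L. With a minimum mean of 5, HSPB3, DNAJB13 and HSF4 had no value. Depth was unknown, so what it limits was not measured.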
